A study of Homo sapiens with 2 samples.

Results

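The CXC chemokine cluster on the long arm of chromosome 4 holds 9 chemokine genes in a stretch of 359 kb, in the order CXCL8, CXCL6, PF4V1, CXCL1, PF4, PPBP, CXCL5, CXCL3 and CXCL2. Binding of JUNB around these genes was mapped by CUT&RUN, in which an antibody leads a nuclease to chromatin and the DNA cut free is sequenced. The cells were IMR-90, a line of human lung fibroblasts. The study compared 1 library of cells that received no treatment with 1 library of cells treated with etoposide, a topoisomerase II poison that brings cultured fibroblasts into senescence. The dose and duration of etoposide are not given in the sources used here, and both libraries were made with the same JUNB antibody. The genes were taken by name, and the peaks were all those with a summit from 50 kb before CXCL8 to 50 kb after CXCL2 (GRCh38, chromosome 4, 73690569 to 74149195). This window held 15 of the 32550 untreated peaks and 11 of the 25739 etoposide peaks on chromosomes 1 to 22 and X. Because each condition had 1 library, the differences below carry no replicate check and none was tested.

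CXC chemokines are small secreted proteins that draw white blood cells along a gradient. CXCL8, CXCL6, CXCL1, CXCL5, CXCL3 and CXCL2 carry the ELR motif, attract neutrophils through the receptors CXCR1 and CXCR2, and belong to the inflammatory secretion of senescent fibroblasts. PF4, its close copy PF4V1 and PPBP are best known from the granules of platelets. JUNB is a subunit of AP-1, which binds the letters TGANTCA, and CXCL8 is a textbook target of AP-1 acting together with NF-kappa-B.

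Only CXCL8 and CXCL2 had a JUNB summit within 1 kb of their start, so their promoter sequences are shown first. Each is given in full for the 250 bases before the gene start, from RefSeq on GRCh38 patch 14, read along the gene. CXCL8 lies on the plus strand (here chr4:73740319-73740568) and CXCL2 on the minus strand (chr4:74099196-74099445). Capitals mark the AP-1 motif TGANTCA and the letters GGAATTTCC, the core of a classical NF-kappa-B site.
CXCL8: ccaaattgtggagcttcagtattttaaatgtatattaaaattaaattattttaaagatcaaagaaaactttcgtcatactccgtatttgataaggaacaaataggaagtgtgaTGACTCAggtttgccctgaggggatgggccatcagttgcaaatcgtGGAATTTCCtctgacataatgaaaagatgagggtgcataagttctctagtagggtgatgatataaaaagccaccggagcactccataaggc
CXCL2: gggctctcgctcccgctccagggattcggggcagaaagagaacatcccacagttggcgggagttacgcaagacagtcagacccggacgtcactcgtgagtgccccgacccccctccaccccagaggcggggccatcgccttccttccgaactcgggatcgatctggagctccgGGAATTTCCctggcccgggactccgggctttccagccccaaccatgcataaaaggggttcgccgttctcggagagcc
In CXCL8 the AP-1 motif ran from 137 to 131 bases before the start and GGAATTTCC from 91 to 83 bases before it. In CXCL2 no TGANTCA was found and GGAATTTCC ran from 77 to 69 bases before the start.

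The same 9 letters stood at nearly the same place in 4 more members, shown here as stretches of 80 bases because none of these 4 promoters was touched by a peak in either library. The positions are chr4:73836564-73836643 for CXCL6, chr4:73869290-73869369 for CXCL1, chr4:73998713-73998792 for CXCL5, chr4:74038713-74038792 for CXCL3.
CXCL6: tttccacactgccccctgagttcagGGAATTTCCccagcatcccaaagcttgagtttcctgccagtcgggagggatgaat
CXCL1: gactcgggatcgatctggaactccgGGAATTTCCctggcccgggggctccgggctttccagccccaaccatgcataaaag
CXCL5: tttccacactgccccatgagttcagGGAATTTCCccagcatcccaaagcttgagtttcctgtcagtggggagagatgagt
CXCL3: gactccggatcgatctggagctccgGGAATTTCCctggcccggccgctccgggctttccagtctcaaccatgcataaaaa
GGAATTTCC was therefore present in CXCL8, CXCL6, CXCL1, CXCL5, CXCL3 and CXCL2. It was found in neither PF4V1 nor PPBP, and 0.405% of 15812 protein-coding promoters of the same 300 bases held it on either strand. These letters were chosen for display after the promoters had been read. A longer NF-kappa-B motif was also searched, which takes in GGAATTTCC where a G stands before it or a C after it. It matched 5 of the 8 members with a promoter sequence, which were CXCL6, CXCL1, CXCL5, CXCL3 and CXCL2. Of all promoters it matched 6.37%. TGANTCA was present in CXCL8 alone among the 8, against 5.76% of all promoters, and the cAMP response element TGACGTCA in none of the 8, against 2.59%. In its 250 upstream bases CXCL1 was 81.4% identical to CXCL3 and 70.4% to CXCL2, and CXCL6 was 85.3% identical to CXCL5, where other pairs of members, leaving out CXCL3 with CXCL2 at 73.3%, lay between 42.0% and 54.0%.

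Most peaks lay between genes, and they left long stretches of the cluster empty. Between CXCL8 and CXCL6 no untreated summit was listed over 104 kb (73740607 to 73844319) and no etoposide summit over 118 kb (73726009 to 73844350). A further 61.7 kb before PF4 held no summit in either library. Both lists together gave 16 places, and 3 of 15 untreated and 1 of 11 etoposide summits lay inside an annotated gene of any kind. The strength of each peak is given below as the number of DNA fragments stacked at its summit, solved from the authors' deposited fold and p. Its median over the window was 16 fragments for untreated cells (8 to 55) and 14 for etoposide (8 to 41), beside 15 and 13 over the whole lists. The authors' deposited -log10 q was above the median of its list for 9 of 15 untreated and 8 of 11 etoposide peaks. By number of peaks the window was well filled. Of 6596 windows of the same 459 kb laid end to end along the chromosomes, 5.18% held at least 15 untreated summits and 7.43% at least 11 etoposide summits, with medians of 4 and 3. These windows include assembly gaps and stretches without genes.

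**Figure D1:**
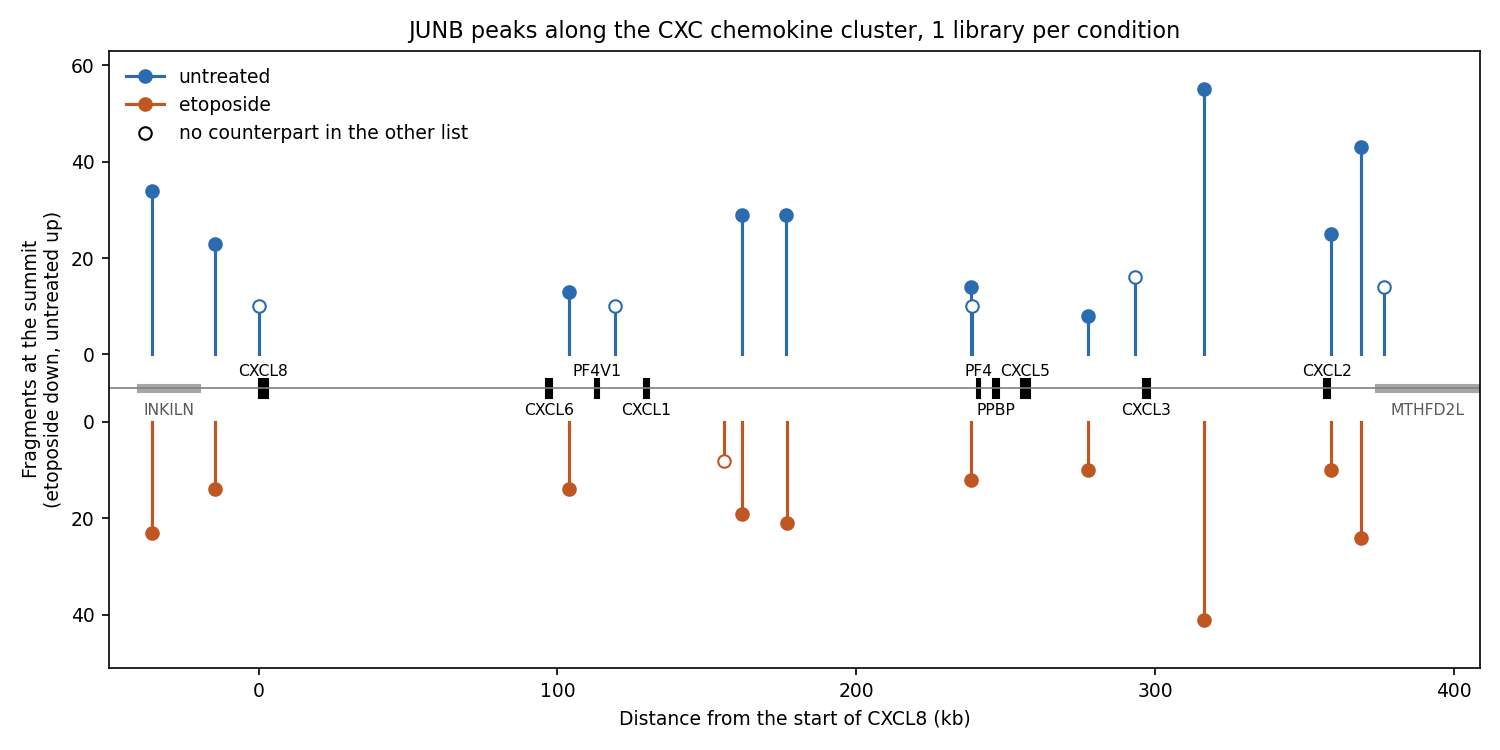
JUNB summits along the cluster, by distance from the CXCL8 start (kb). Stems give fragments at the summit, up for the untreated and down for the etoposide library, on linear scales from 0; black boxes are the 9 genes, grey boxes the neighbours INKILN and MTHFD2L. Filled points have a counterpart in the other list; the tallest stem in both libraries, with 55 and 41 fragments, stands between CXCL3 and CXCL2.

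Of the 16 places, 10 were common to both libraries. Counting a counterpart as at least 1 bp in common, 10 of 15 untreated peaks (66.7%, exact binomial 95% interval 38.4% to 88.2%) and 10 of 11 etoposide peaks (90.9%, 58.7% to 99.8%) had one. Over the whole lists 51.0% of untreated and 64.8% of etoposide peaks did, and each value lies within the interval of the cluster for that library. These intervals cover counting error only. Summits of a pair were close, with a median offset of 28 bp (9 to 48 bp) where all 16610 pairs of the genome had a median of 41 bp. Another 5 peaks were listed for untreated cells alone and 1 for etoposide alone. With only peaks of -log10 q of at least 5, both libraries had 11 peaks in the window, 9 of each shared. Where at least 50% of both peaks had to overlap, 8 peaks of each library had a counterpart. The places at the CXCL2 start and 14.5 kb upstream of CXCL8 then dropped out. The share of the whole lists with a counterpart under either limit was not computed.

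The strongest place of the cluster lay between CXCL3 and CXCL2 and belonged to no annotated gene. It stood 18.2 kb upstream of the CXCL3 start and 1.45 kb from the pseudogene PPBPP2. The untreated peak, at 74056710 to 74057345, had 55 fragments (95% Poisson interval 41.4 to 71.6) and ranked 228 of 32550. The etoposide peak, at 74056701 to 74057322, had 41 fragments (29.4 to 55.6) and ranked 261 of 25739. These ranks put the place between CXCL3 and CXCL2 in the top 0.7% of the untreated and the top 1.01% of the etoposide list. Both peaks were wide, at 636 and 622 bp.

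Beyond CXCL2, towards the folate enzyme gene MTHFD2L, came the next strongest untreated peak. It lay 10.3 kb upstream of the CXCL2 start at 74109238 to 74110009, with 43 fragments (31.1 to 57.9). Its etoposide counterpart had 24 fragments (15.4 to 35.7). At the other end of the cluster a shared peak lay inside INKILN, a long noncoding RNA gene next to CXCL8, 35.7 kb upstream of the CXCL8 start. It had 34 fragments in untreated and 23 in etoposide cells. A second shared peak lay between INKILN and CXCL8, 14.5 kb upstream of CXCL8, with 23 and 14 fragments. Both peaks near INKILN thus had more fragments than the peak at the CXCL8 start itself.

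The wide space between CXCL1 and PF4 held a pair of strong shared places. At 31.0 kb downstream of CXCL1 there were 29 untreated and 19 etoposide fragments, and at 45.9 kb there were 29 and 21. The first ranked 1383 in the untreated and 2113 in the etoposide list, and the second 2812 and 2153. The peak listed for etoposide alone also lay here, 25.1 kb downstream of CXCL1 at 73896327 to 73896515. It was one of the weakest of the cluster, with 8 fragments (3.45 to 15.8).

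**Figure D2:**
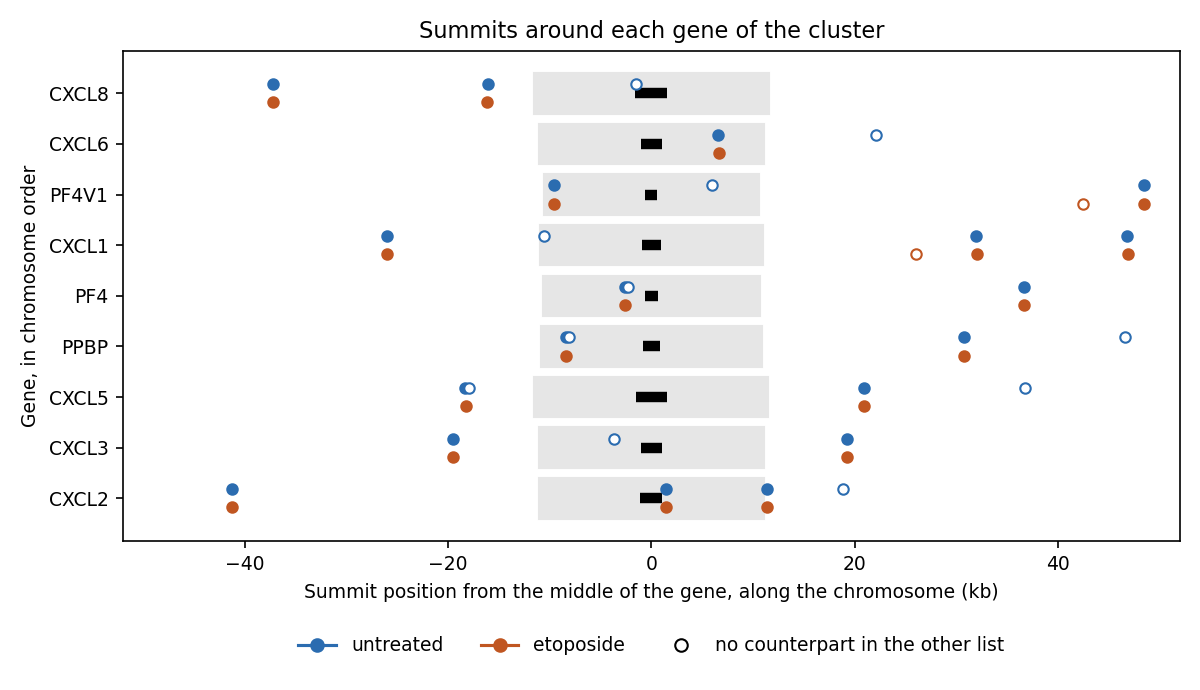
Summits within 50 kb of the middle of each gene, along the chromosome (kb); black bars are the genes, the grey boxes reach 10 kb beyond each end of the gene, and open points have no counterpart in the other list. CXCL5 has no summit in its box in either library, and the boxes of CXCL8, CXCL1 and CXCL3 hold open untreated points alone.

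Seen gene by gene, 8 of 9 members had an untreated and 5 of 9 an etoposide summit within 10 kb. Over 19974 protein-coding genes the shares were 49.6% and 38.9%. Within 1 kb of the gene 2 of 9 had an untreated and 1 of 9 an etoposide summit, where 39.5% and 30.3% of all genes did. Within 50 kb all 9 had one in each library, where 72.0% of all genes had an untreated and 62.6% an etoposide summit. Both libraries had one at CXCL6, PF4V1, PF4, PPBP and CXCL2, 5 of 9 where 34.3% of all genes did. The untreated library alone had one at CXCL8, CXCL1 and CXCL3, 3 of 9 where 15.3% of all genes did. None of the 9 had an etoposide summit alone, against 4.61% of all genes, and 1, CXCL5, had neither, against 45.8%. The members are neighbours and are not independent: the peak near CXCL6 also counted for PF4V1, an untreated peak counted for both PF4V1 and CXCL1, and the peaks near PF4 counted for PPBP.

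CXCL8, the best known neutrophil attractant of the family (gene ID 3576, 73740569 to 73743716), had a peak over its start in untreated cells. This peak ran from 73740450 to 73740775, and its summit lay 38 bp after the gene start. It was weak for its list, with 10 fragments (4.8 to 18.4), a deposited -log10 q of 4.62 and rank 29539 of 32550. It covered GGAATTTCC, whereas the AP-1 motif printed above lay 12 bp outside its upstream edge and 172 bp from its summit. No etoposide peak was listed within 14.3 kb of it, and the nearest etoposide summit to CXCL8 was the shared place 14.6 kb upstream.

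CXCL2, also known as GRO beta (gene ID 2920, 74097040 to 74099195), had the strongest untreated peak within 10 kb of any member. This untreated peak ran over the gene start, from 74099167 to 74099722, with its summit 347 bp upstream and 25 fragments (16.2 to 36.9). The etoposide peak, from 74099488 to 74099708, had its summit 374 bp upstream and 10 fragments (4.8 to 18.4). It was narrower, at 221 bp against 556 bp, and ended 43 bp short of the promoter window, while the untreated peak covered 279 of its 300 bases. The rank of this place was 2660 in the untreated and 13127 in the etoposide list. Both summits lay upstream of the 250 bases printed above, and the letters under them were not read here. The map of the CXCL8 and CXCL2 starts shows these extents.

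**Figure D3:**
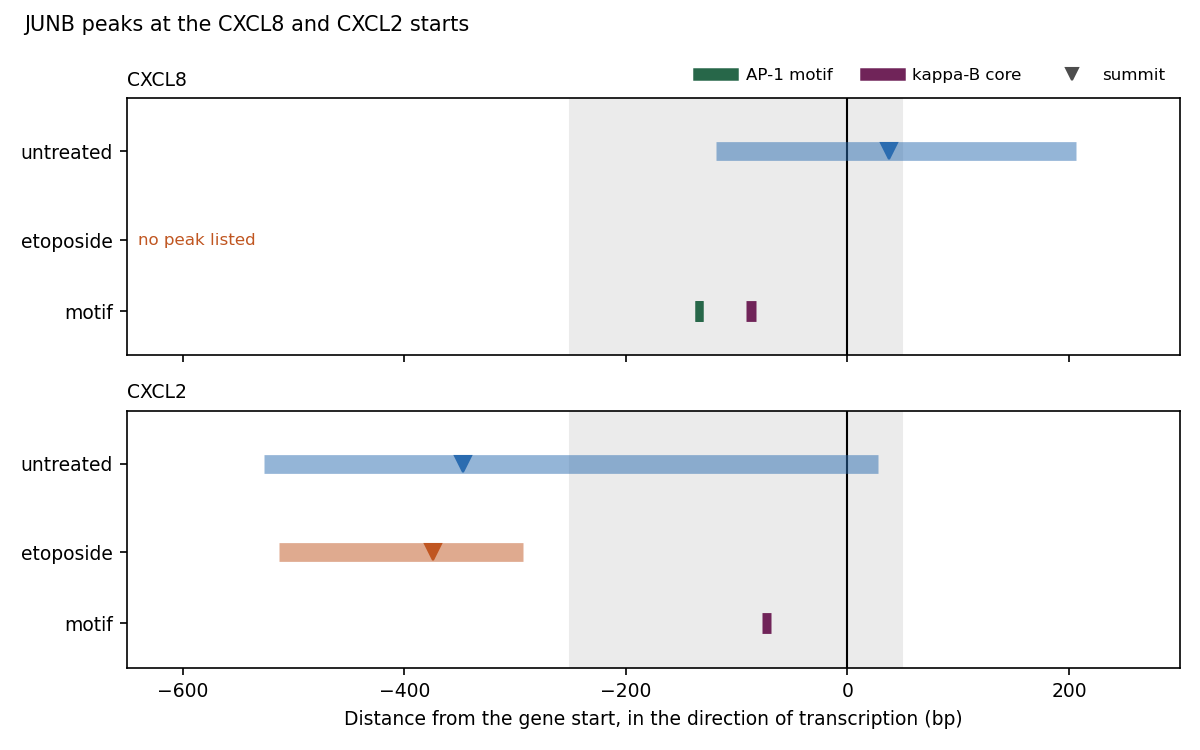
Listed peaks at the starts of CXCL8 and CXCL2, by distance from the gene start in the direction of transcription (bp). Bars are peak extents, triangles summits, the grey band the promoter window of 250 bases before to 50 after the start, and coloured blocks the AP-1 motif and the kappa-B core GGAATTTCC; CXCL8 has an untreated peak only, and the etoposide peak of CXCL2 stops outside the band.

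Across the 8 promoter windows of members in the table, an untreated peak touched 2, those of CXCL8 and CXCL2, and an etoposide peak touched 0. Of all 15812 promoter windows, 11.4% were touched by an untreated and 3.13% by an etoposide peak. Among the promoters touched by a peak, 8.60% of the untreated and 17.8% of the etoposide ones held TGANTCA.

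CXCL1 and CXCL3, the other GRO chemokines, had no peak at their starts. CXCL3 had an untreated peak 2.67 kb past its end, at 74033837 to 74034077, with 16 fragments (9.15 to 26.0) and rank 9237. No etoposide peak lay within 15.7 kb of that peak, and the nearest etoposide summit to CXCL3 was the strong place 18.2 kb upstream. CXCL1 had an untreated summit 9.58 kb upstream of its start, at 73859733 to 73859934, with 10 fragments, in a peak that lay nearer to PF4V1. Its nearest etoposide summit was 25043 bp upstream.

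CXCL6 and CXCL5, the pair with the most alike promoters, had no summit nearer than 5.56 kb to either gene. CXCL6 had a shared place 5.56 kb past its end with 13 untreated (6.92 to 22.2) and 14 etoposide fragments (7.65 to 23.5). This was 1 of 2 shared places with no fewer fragments in etoposide cells, and it ranked 22595 in the untreated and 8102 in the etoposide list. CXCL5 had its nearest summits 16.4 kb past its end in untreated and 16.8 kb in etoposide cells, both belonging to the group near PF4.

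The platelet members PF4 and PPBP shared the same peaks. PF4 had a shared place 1.95 kb away with 14 untreated and 12 etoposide fragments. A further untreated peak, with its summit 343 bp from that one and nearer to PF4, at 1.6 kb, had 10 fragments. The second peak lay 119 bp from the edge of the etoposide peak, so it counted as unshared only by a narrow gap. For PPBP the nearest summits lay 7.23 kb past its end in untreated and 7.55 kb in etoposide cells. PF4V1 was the nearest member to the untreated peak 5.33 kb past its end, the one also counted for CXCL1, and its nearest etoposide summit lay 8.95 kb upstream.

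At the shared places the etoposide library mostly had fewer fragments. It had fewer at 8 of 10 places, where 73.4% of all 16610 pairs in the genome did. The ratio of etoposide to untreated fragments had a median of 0.700 (0.400 to 1.25) over the 10 places and 0.778 over all pairs. Summed over the 10 places there were 273 untreated and 188 etoposide fragments, a ratio of 0.689 (exact binomial 95% interval 0.569 to 0.832). Summed over all pairs the ratio was 0.776. The etoposide library was estimated at 0.836 times the depth of the untreated one. This value rests on reading the lowest background and the smallest peak width of each list as those of the whole library. It is the ratio of the lowest backgrounds (0.377 etoposide, 0.482 untreated) divided by that of the smallest widths (189 and 202 bp). Taken without the widths, the background ratio was lower than 0.836. The ratio of each of the 10 places had a 95% interval that held 0.836. The interval of the summed ratio, 0.569 to 0.832, did not hold 0.836 but held the 0.776 of all pairs. It also held the background ratio taken without the widths, so this comparison depends on how depth is estimated.

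**Figure D4:**
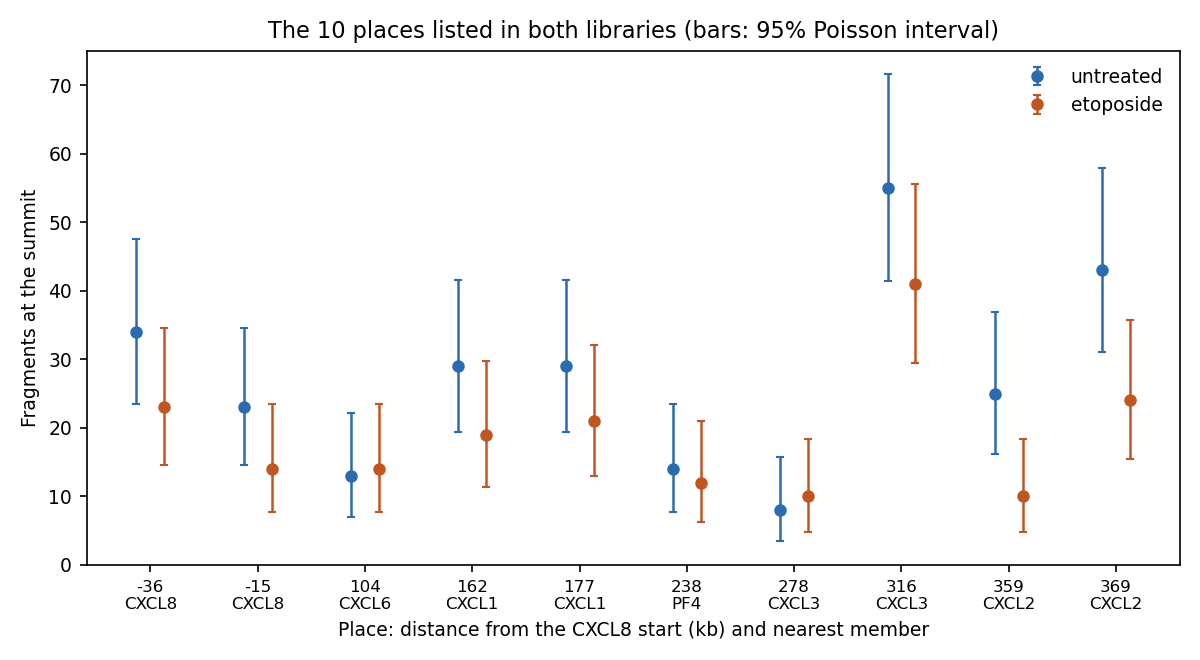
Fragments at the summit of the 10 shared places in order along the chromosome, labelled by distance from the CXCL8 start (kb) and nearest member. Points are the untreated and etoposide libraries, and bars are 95% Poisson intervals, which cover counting error only. The etoposide point is lower at 8 of 10 places, with the widest relative gap at the CXCL2 start, 25 against 10.

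The place at the CXCL2 start had the lowest ratio of the 10, 0.400 (0.171 to 0.862). Of all pairs in the genome 2.57% had a ratio that low or lower. Because the place was picked as the lowest of the 10, this share is a description and not a test. The place 10.3 kb upstream of CXCL2 followed with 0.558 (0.324 to 0.941). The highest ratio was at a weak place 18.5 kb past the end of CXCL3, with 8 untreated and 10 etoposide fragments, 1.25 (0.444 to 3.64).

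The 5 peaks of untreated cells alone were also set against the estimated depth of the etoposide library. At the estimated etoposide depth each of the 5 would still have reached the lowest -log10 p of the etoposide list, 4.39, as would 99.6% of all 15940 untreated peaks without a counterpart. For CXCL8 this meant 8.36 fragments where 7 were needed, with a counting interval of 4.01 to 15.4 that reaches below 7. Why no etoposide peak was listed at CXCL8 was not tested. With peaks of -log10 q of at least 5 alone, CXCL8 and CXCL1 had no untreated summit within 10 kb either. That left 6 of 9 members with an untreated and 5 of 9 with an etoposide summit, where 45.8% and 35.2% of all genes had one. The untreated peak between PF4V1 and CXCL1 and the second peak near PF4 each also came to 8.36 (4.01 to 15.4) where 7 were needed. The untreated peak inside MTHFD2L, 17.8 kb upstream of CXCL2, came to 11.7 (6.40 to 19.6) where 9 were needed. Only the peak near CXCL3 kept its whole interval above the need, at 13.4 (7.64 to 21.7) against 6. All these intervals come from the untreated count alone and leave out counting error in the etoposide library. They rest on the summit alone and leave out peak width. The peaks between PF4V1 and CXCL1, second near PF4 and inside MTHFD2L were each 202 bp wide, the smallest width of the untreated list. A loss of any of these peaks was not tested. Over the genome 33.3% of untreated peaks without a counterpart had a low end that reached the etoposide threshold.

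The edges of the window left out a further untreated peak by 131 bp, on the CXCL8 side, with 16 fragments and no counterpart. The nearest etoposide summit outside the window on that side lay 13.6 kb before it, with 10 fragments, and on the CXCL2 side 9.89 kb after it, with 11. The next untreated summit on the CXCL2 side lay 119 kb outside, with 22 fragments.

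Genes of chemokine receptors and of cytokine, NF-kappa-B and C/EBP signalling were looked at in the same way. The receptor list was not limited to receptors of the cluster members. Of 8 receptor genes, CXCR6 had an untreated summit within 10 kb (9 fragments, 0.483 kb away) and the other 7, among them CXCR1 and CXCR2, had none in either library. Of 8 CXC chemokine genes outside the cluster, 4 had an untreated and 3 an etoposide summit. CXCL13, which guides B cells, had a summit inside the gene with 38 untreated and 20 etoposide fragments. Of the interferon-induced members CXCL9, CXCL10 and CXCL11, CXCL9 and CXCL10 had both and CXCL11 neither, its nearest summits lying 21.1 kb away in untreated and 13.7 kb in etoposide cells. The untreated summit had 11 fragments at both CXCL9 and CXCL10, and these genes may count the same peak. For CXCL16 an untreated summit alone was listed, with 8 fragments. Of 9 cytokine, NF-kappa-B and C/EBP signalling genes, 4 had an untreated and 2 an etoposide summit. NFKB1, a subunit of NF-kappa-B, had 6 untreated and 3 etoposide summits within 10 kb, the strongest with 34 and 14 fragments. IL1A, a cytokine that induces CXCL8, had 2 and 1. RELA, the main activating subunit, and CEBPB, a C/EBP factor of the CXCL8 promoter, had untreated summits alone, with 9 and 15 fragments. The shares of all genes given above apply to these lists too.

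Other gene clusters gave numbers of the same kind, and no difference between clusters was tested. The matrix metalloproteinase cluster on chromosome 11, with the same margin of 50 kb, had 2.99 untreated and 2.24 etoposide peaks per 100 kb, against 3.27 and 2.40 in the CXC cluster. The CCL cluster on chromosome 17 had 1.44 and 2.40, from 3 and 5 peaks.

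The labelled cell type could not be checked through expression, since a peak near a gene does not show that the gene is expressed. Of 10 fibroblast marker genes 9 had a summit within 10 kb in each library. Endothelial markers had 4 and 3 of 5, epithelial markers 4 and 2 of 5, blood cell markers 2 and 2 of 5, and platelet lineage markers 2 and 1 of 4. Over all protein-coding genes the shares were 49.6% and 38.9%. The part of other cells in these results was not tested.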

How the data were processed

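JUNB CUT&RUN peak lists of 2 IMR-90 libraries, untreated and etoposide, were analysed, 1 per condition by the treatment label. The submitters' processing notes name Bowtie2, MACS2, mm10 and hg38 without roles; contig names are those of GRCh38, and untreated peaks touched 11.4% of promoter windows at their own positions against 0.797% and 0.923% when the windows were moved by 10 kb either way. Caller settings are not given in the sources used here. Each list holds the authors' deposited fold (a ratio to local background), -log10 p and -log10 q of the summit, a deposited score (10 times -log10 q, to within 1 in 100% of peaks), and the deposited summit offset. These are the authors' own values and were used within their list.

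Python 3.11.15 was used. Fragments at the summit, k, were solved from fold = (k + 1)/(b + 1) and the Poisson tail above k at background b, and returned the deposited -log10 p within 0.001 in 100% of peaks; the step was tested on simulated data. Fragments do not distinguish molecules from PCR copies, which limits all intervals to counting error. Ranks are by -log10 q, with ties given the better rank. Gene positions and promoter sequences (250 bases before to 50 after the start) are RefSeq, GRCh38 patch 14, with 15812 promoters for 19974 protein-coding genes and 8 of the 9 members matched; distances to PF4 were taken without strand. Motifs were searched on both strands. Upstream sequences were aligned globally with Biopython 1.88 (match 1, mismatch -1, gap -3 and -1). No genome sequence was used, so peaks outside promoters were not searched. Alternatives were a -log10 q of at least 5, the 10000 strongest peaks, other windows and stricter or looser overlap. The members and gene lists were chosen with earlier results of these data known. Named were all members and every peak of the window.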

Additional observations from a re-analysis of the deposited data

How the results depend on the processing

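Of 28 recomputed values, 19 stayed within 1.5 times the value reported. Among the 10000 strongest peaks of each list, the window held 8 untreated and 7 etoposide peaks, 6 of each shared, and 2 members had a summit within 10 kb in each library: CXCL3 and CXCL2 for untreated, CXCL6 and PF4V1 for etoposide. Over all genes the shares with a summit within 10 kb were 22.1% and 20.6%. The share of all these strongest peaks with a counterpart was not computed. Within 1 kb, 2 members had an untreated and 1 an etoposide summit, against 39.5% and 30.3% of all genes. Within 50 kb all 9 had a summit in each library, against 72.0% and 62.6%; these members share peaks. With only peaks of -log10 q 5 or more, both libraries had 11 peaks in the window. The untreated peaks near CXCL8 and CXCL1 then dropped out, members with a summit within 10 kb were 6 and 5 of 9 (45.8% and 35.2% of all genes), and of the members with an untreated summit alone CXCL3 was left. No paired analysis was possible because each condition had 1 library. A peak list shows no signal below its threshold, so an unlisted place may hold fewer fragments rather than none.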
